A study of Mus musculus with 12 samples.

Results

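The respiratory chain of the inner mitochondrial membrane was read here through 47 nuclear genes for subunits of complexes I to IV and for cytochrome c, in the livers of newborn mouse pups with and without the nuclear receptor PPARα. Members were taken from a list of subunit symbols, and for each symbol the brightest of the probe sets naming no second gene, averaged over all arrays, was used. All 47 listed genes were measured, of 19938 genes read on the arrays. They were 30 of complex I, 2 of complex II, 6 of complex III, the 1 gene of cytochrome c and 8 of complex IV. Ndufa4 is counted with complex I, after its name, though it is now placed in complex IV.

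Electrons from NADH enter the chain at complex I and those from succinate at complex II, and both pass through ubiquinone to complex III, on to cytochrome c and then to oxygen at complex IV. Complexes I, III and IV pump protons as they do so, and ATP synthase uses the gradient. Most subunits are made from nuclear genes and imported, whereas a small hydrophobic core is encoded in mitochondrial DNA. In the suckling liver milk fat is a main fuel, and the acyl-CoA dehydrogenases of fatty acid oxidation hand their electrons to ubiquinone by a separate route, the electron transfer flavoprotein and its oxidoreductase. PPARα is a ligand-activated transcription factor that drives many genes of fatty acid oxidation.

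Whole liver was taken at postnatal day 2 from 6 Ppara-/- pups, which lack functional PPARα in all cells from conception, and 6 Ppara+/+ pups, each genotype with 3 males and 3 females and 1 array per pup. Both genotypes came from crosses of heterozygous parents and could share a litter, and litters held 6 to 8 pups. The strain is labelled SV129, while the methods of the study give a C57BL/6 background. The methods name 3 litters per genotype, but which pup came from which is not labelled, so the p-values take pups as independent and litter could not enter the fit. Fetal arrays are not analysed here.

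The deposited values are log2 signals made by the robust multi-array average (RMA). The median signal of an array lay between 7.16 and 7.20, any pair of arrays correlated at 0.989 to 0.996, and the number of arrays limits the precision. Ppara itself ran from 10.98 to 11.27 in Ppara+/+ livers and from 10.21 to 10.33 in Ppara-/- livers, a log2 change of -0.89 (SE 0.0488, adjusted p = 1.2e-06 from limma). It is not known here whether the probes lie in the part of Ppara that was disrupted. Of 12 known PPARα targets, a list written with their results known, all 12 fell, with a median log2 change of -1.09.

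None of the 47 subunit genes fell and none rose in Ppara-/- livers at an adjusted p under 0.05 (limma with sex as a term, Benjamini-Hochberg adjustment over all probe sets). Over all genes 1.12% fell and 1.99% rose by this test. Without adjustment 13 members had a p under 0.05, 12 higher and 1 lower, which is 27.7% of them against 17.2% of all genes. The smallest adjusted p of a member was 0.141, for Ndufa8. An exact Mann-Whitney test gave 16 of the 47 members, and 16.9% of all genes, an unadjusted two-sided p under 0.05. Whole liver RNA does not tell fewer cells of a type from less RNA per cell.

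The limits of these changes were narrow. All 47 members had 95% limits that stayed within 1.3-fold in either direction, as 93.3% of all genes did, and 45 stayed within 1.2-fold, as 75.1% of all genes did. The exceptions to the 1.2-fold bound were Ndufa1 on the low side and Ndufb10 on the high side. Across the members the limits reached from 0.820 to 1.22 as a ratio of Ppara-/- to Ppara+/+, each limit taken gene by gene. The SE of a member's log2 change had a median of 0.0417, and that of all genes 0.0589. For scale, Etfdh fell by 0.80 on the log2 scale, with limits of -0.87 to -0.72. It is the oxidoreductase that passes electrons from fatty acid oxidation to ubiquinone, and it is among the known PPARα targets counted above.

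Small positive differences were more frequent than negative ones. The mean was higher in Ppara-/- livers for 39 members and lower for 8, or 83.0% higher, against 45.1% of all genes. Genes with a mean signal in the members' range, 10583 of them, were higher in 53.5%. The median log2 change was 0.05 over the members and -0.01 over all genes, while the median size of the change without its sign was 0.06 in both. Limits lay wholly above 0 for 12 members (25.5%, all genes 9.27%) and wholly below 0 for 1 (2.13%, all genes 7.89%). The members share arrays and are not independent, so these counts carry no test.

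**Figure D1:**
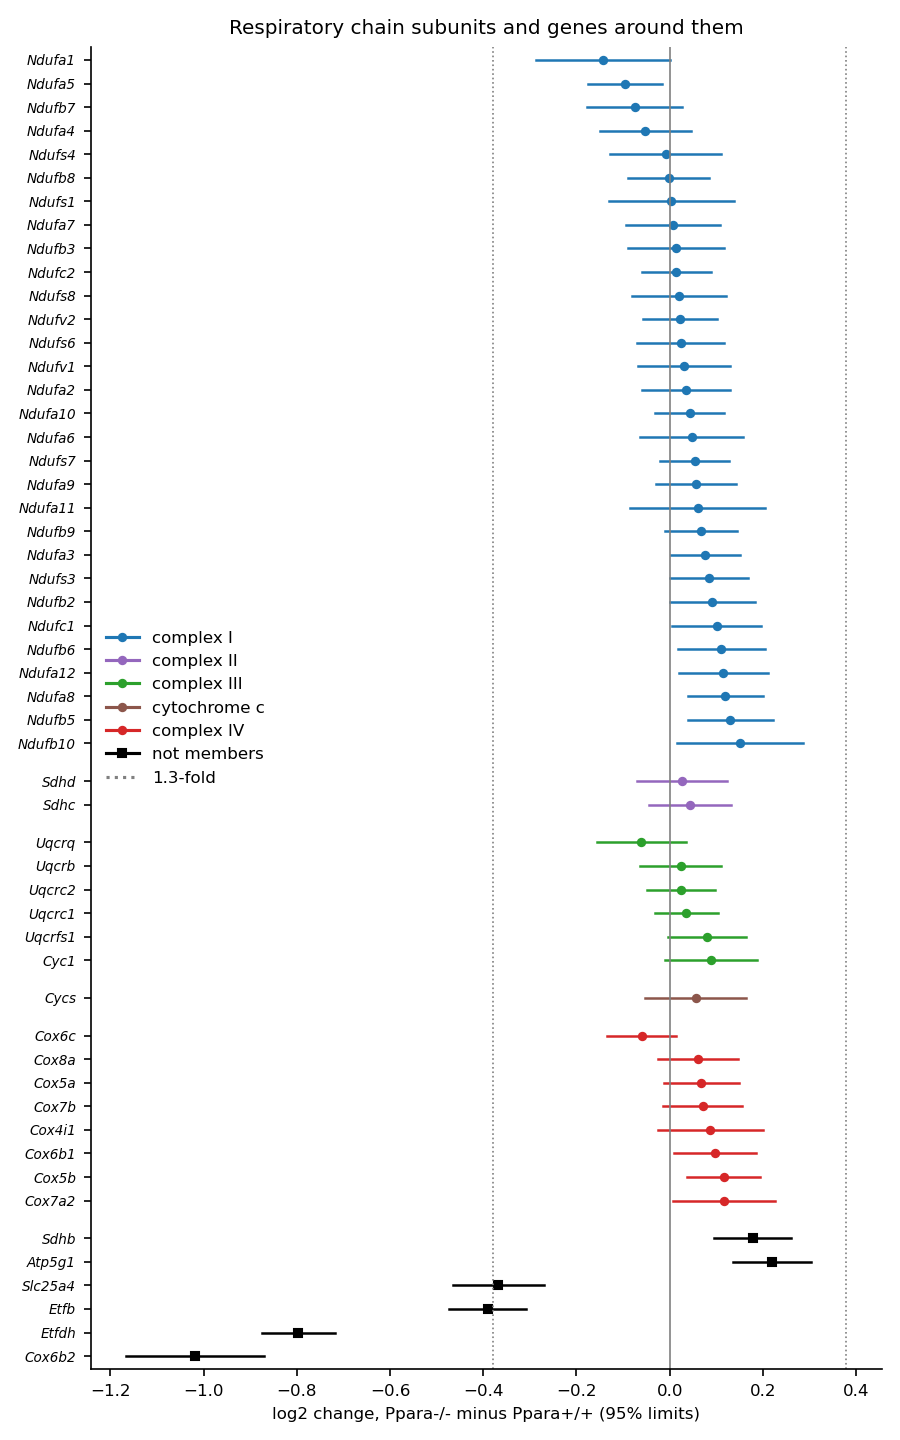
Log2 change of each subunit gene, Ppara-/- minus Ppara+/+, on the horizontal axis with its 95% limits, by complex, with 6 genes outside the list in black at the bottom; dotted lines mark 1.3-fold. All 47 members lie between the dotted lines, while Etfdh at -0.80 and Cox6b2 at -1.02 lie far to the left.

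In 3 members, Ndufa8, Ndufb5 and Cox5b, the genotypes did not overlap, which is 6.38% of members against 4.31% of all genes, and in each of them the Ppara-/- livers were higher. After median centring of the arrays Ndufa8 overlapped, and Ndufb5 and Cox5b did not. Without Ppara+/+ replicate 7, 6 members did not overlap (12.8%, all genes 7.24%), all higher in Ppara-/-, with Ndufa9, Ndufa12 and Ndufs3 added. Without Ppara+/+ replicate 1 it was also 6 (12.8%, all genes 5.11%), and the added Ndufa5, Uqcrq and Cox6c were lower in Ppara-/-. Ndufa8, an accessory subunit on the intermembrane side of complex I, ran from 11.087 to 11.197 (median 11.13) in Ppara+/+ and from 11.205 to 11.310 (median 11.26) in Ppara-/-. Its log2 change was 0.12 (SE 0.0367, 95% limits 0.04 to 0.20, adjusted p = 0.141 from limma). Every Ppara-/- array lay above every Ppara+/+ array, with a gap far smaller than either group's range.

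Ndufb5, an accessory subunit of the complex I membrane arm, ran from 10.56 to 10.69 (median 10.66) in Ppara+/+ and from 10.70 to 10.86 (median 10.77) in Ppara-/-, a log2 change of 0.13 (SE 0.0414, limits 0.04 to 0.22, adjusted p = 0.157 from limma). The groups nearly touch. Cox5b, a zinc-binding subunit of complex IV, ran from 11.83 to 11.93 (median 11.88) in Ppara+/+ and from 11.95 to 12.09 (median 11.99) in Ppara-/-. Its log2 change was 0.12 (SE 0.0357, limits 0.04 to 0.19, adjusted p = 0.142 from limma), and its dimmer probe set gave 0.12 as well. With the variance estimated as a robust trend on the signal, Cox5b passed at an adjusted p of 0.0380, the 1 member called under any setting tried.

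The promoters of these 3 genes and of Cycs, which encodes cytochrome c, are shown so that the sequence before each start can be read beside the values. They come from RefSeq (GRCm38.p6), as the 250 bases before the annotated start on the gene's own strand: Ndufa8 at chr2:36049339-36049588 (minus strand), Ndufb5 at chr3:32736813-32737062 (plus strand), Cox5b at chr1:36691237-36691486 (plus strand) and Cycs at chr6:50566570-50566819 (minus strand). Capitals mark a match to one of the motifs listed in the next paragraph.
Ndufa8: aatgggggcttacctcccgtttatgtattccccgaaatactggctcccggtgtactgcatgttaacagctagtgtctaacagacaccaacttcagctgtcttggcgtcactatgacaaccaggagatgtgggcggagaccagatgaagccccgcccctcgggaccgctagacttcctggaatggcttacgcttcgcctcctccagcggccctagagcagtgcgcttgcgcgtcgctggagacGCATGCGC
Ndufb5: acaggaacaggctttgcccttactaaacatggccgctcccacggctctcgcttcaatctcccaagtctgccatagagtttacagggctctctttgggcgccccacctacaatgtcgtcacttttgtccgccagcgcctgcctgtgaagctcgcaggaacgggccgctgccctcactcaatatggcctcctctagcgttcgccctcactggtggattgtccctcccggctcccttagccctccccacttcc
Cox5b: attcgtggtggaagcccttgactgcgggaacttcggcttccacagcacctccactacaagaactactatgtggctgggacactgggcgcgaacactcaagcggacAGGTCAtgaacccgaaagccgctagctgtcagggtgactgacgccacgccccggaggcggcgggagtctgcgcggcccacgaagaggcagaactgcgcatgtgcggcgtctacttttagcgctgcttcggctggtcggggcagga
Cycs: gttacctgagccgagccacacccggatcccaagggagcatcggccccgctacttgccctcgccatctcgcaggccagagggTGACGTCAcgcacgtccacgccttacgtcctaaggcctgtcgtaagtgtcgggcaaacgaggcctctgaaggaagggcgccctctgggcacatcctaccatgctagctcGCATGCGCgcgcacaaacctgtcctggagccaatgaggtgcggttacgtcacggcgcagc

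The NRF1 core GCATGCGC stands directly before the start of Ndufa8 and begins 60 bases before that of Cycs, and Cycs also holds the cAMP response element TGACGTCA, beginning 169 bases before its start. Cox5b holds 1 nuclear receptor half-site, AGGTCA, and Ndufb5 holds none of the motifs searched. Promoters of 300 bases (50 of them after the start) were found for 37 members, 39 in all, and letters were matched on both strands against the same window of 32851 promoters. GCATGCGC was in 5 member promoters (12.8%, all promoters 2.71%), of Cycs, Ndufa11, Ndufa6, Ndufa8 and Uqcrc1. The YY1 motif AAGATGGCG was in 5 (12.8%, all 1.403%), of Ndufa9, Ndufc1, Ndufs4, Ndufs6 and Ndufs7, and TGACGTCA in 5 (12.8%, all 1.79%).

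The ETS motif CCGGAAG was in 7 member promoters (17.9%, all 8.86%), the TATA box TATAAA in 5 (12.8%, all 13.6%) and AGGTCA in 8 (20.5%, all 16.3%). AGGTCANAGGTCA, a pair of half-sites with 1 base between them, the arrangement that PPARα with its partner RXR is known to bind, was in 0 (all 0.0396%); each copy of it also counts as a half-site. These matches describe letters in a window and say nothing of binding. For Cyc1, Cox4i1, Ndufs1, Ndufb9, Uqcrb, Ndufa2, Sdhc, Cox6c, Uqcrc2 and Uqcrq no promoter was used here.

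Complex I takes up NADH in a matrix arm and pumps protons through a membrane arm. Its 30 members had a median log2 change of 0.04, with 24 above 0, 6 below and none called. Among the 6 core subunits of the matrix arm, which carry the flavin and the iron-sulfur clusters or frame the quinone site, all 6 lay above 0 with a median of 0.03. Ndufs3 had the largest value, 0.09, with Ppara+/+ livers at 11.21 to 11.33 (median 11.23) and Ppara-/- livers at 11.27 to 11.39 (median 11.32), ranges that overlap. Ndufs1, the largest subunit, had the smallest, 0.00 (limits -0.13 to 0.14), with overlapping ranges of 10.18 to 10.40 and 10.12 to 10.42.

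Ndufs7, which holds the last iron-sulfur cluster before ubiquinone, stood at 0.05, Ndufv1, the NADH-binding flavoprotein, at 0.03, and its partner Ndufv2 and the iron-sulfur subunit Ndufs8 both at 0.02. All of these had limits that include 0.

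Accessory subunits of the matrix arm, 8 of them, had a median log2 change of 0.03, with 6 above 0. Ndufa5 was the 1 member with limits wholly below 0: it ran from 8.18 to 8.31 (median 8.25) in Ppara+/+ and from 8.08 to 8.19 (median 8.15) in Ppara-/-, a log2 change of -0.10 (SE 0.0364, limits -0.18 to -0.02, adjusted p = 0.241 from limma). The ranges overlap only at their edge. Ndufa12 had the opposite sign, with 8.91 to 9.10 (median 9.06) in Ppara+/+ and 9.08 to 9.24 (median 9.16) in Ppara-/-, a log2 change of 0.12 (SE 0.0439, adjusted p = 0.240 from limma). The remaining accessory changes were 0.06 for Ndufa9, 0.05 for Ndufa6, 0.03 for Ndufa2, 0.02 for Ndufs6, 0.01 for Ndufa7 and -0.01 for Ndufs4, which is needed for a stable complex. So opposite signs, of similar size, stood side by side within 1 arm.

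The 15 accessory subunits of the membrane arm had a median log2 change of 0.07, with 12 above 0, 7 of them with limits wholly above 0. Ndufb10, of the far end of the arm, had the largest change of any member, 0.15 (SE 0.0615, limits 0.02 to 0.29, adjusted p = 0.278 from limma), from 7.72 to 8.06 (median 7.92) in Ppara+/+ against 7.97 to 8.12 (median 8.04) in Ppara-/-. The Ppara+/+ livers were the more spread, and some lay as high as the Ppara-/- livers. Ndufa1, a small X-linked subunit needed for assembly, had the largest negative change, -0.14 (SE 0.0659, limits -0.29 to 0.00, adjusted p = 0.339 from limma). It ran from 8.47 to 8.79 (median 8.67) in Ppara+/+ and from 8.28 to 8.67 (median 8.54) in Ppara-/-, and the lowest Ppara-/- array stood apart below the other five.

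**Figure D2:**
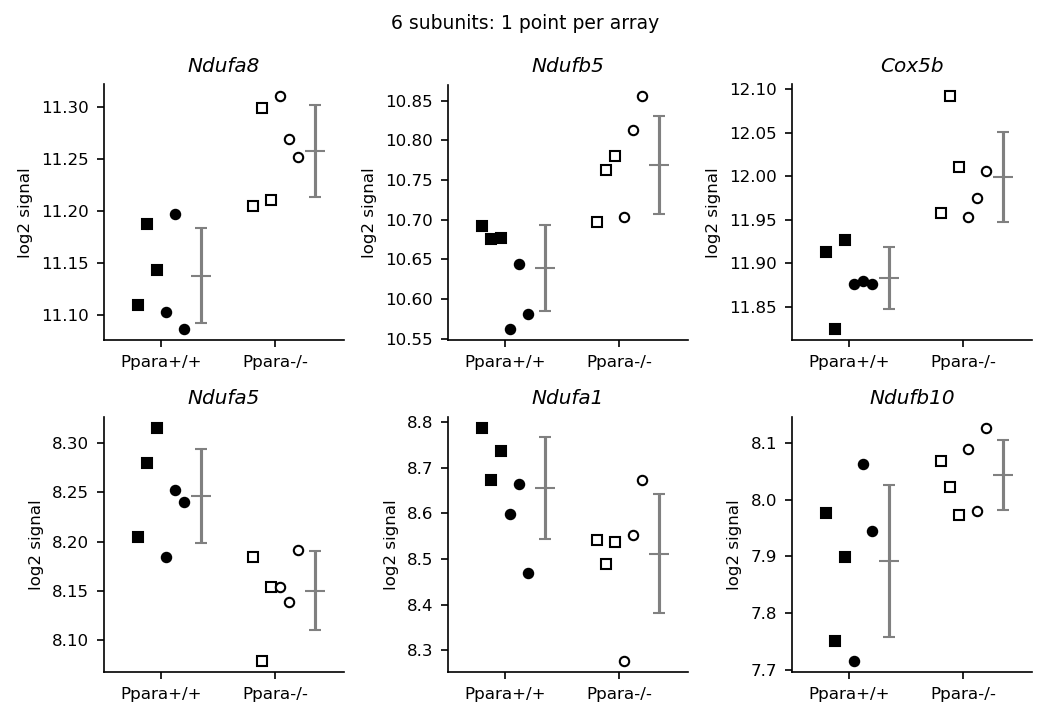
Log2 signal of 6 subunits on the vertical axis, 1 point per array; filled points are Ppara+/+ and open points Ppara-/-, circles males and squares females, and grey bars give mean ± SD (n = 6). Ndufa8, Ndufb5 and Cox5b separate by genotype, while Ndufa5, Ndufa1 and Ndufb10 overlap.

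Beside Ndufa8, Ndufb5 and Ndufb10, unadjusted limits above 0 were seen for Ndufb6 at 0.11, Ndufc1 at 0.10, Ndufb2 at 0.09 and Ndufa3 at 0.08. Ndufb9 at 0.07, Ndufa10 at 0.04, Ndufb3 and Ndufc2 at 0.01 each, Ndufb8 at -0.00 and Ndufb7 at -0.08 completed the arm together with Ndufa11 at 0.06. Ndufa11, which ties the arm together near its middle, had the widest limits of all members, -0.08 to 0.21. Its Ppara+/+ arrays ran from 10.52 to 10.93 while its Ppara-/- arrays stayed between 10.79 and 10.90. Ndufa4, named for complex I and counted with it here but now placed in complex IV, stood at -0.05 (limits -0.15 to 0.05).

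Succinate dehydrogenase, complex II, also belongs to the citric acid cycle. Its membrane anchors Sdhc and Sdhd form the ubiquinone site. Sdhc had a log2 change of 0.04 (limits -0.04 to 0.13), with arrays at 11.31 to 11.48 in Ppara+/+ and 11.36 to 11.48 in Ppara-/-. Sdhd had one of 0.03 (limits -0.07 to 0.12), with arrays at 11.17 to 11.33 and 11.15 to 11.34. Both pairs of ranges overlap almost entirely.

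Complex III passes electrons from ubiquinol to cytochrome c. Of its 6 members 5 lay above 0, with a median log2 change of 0.03, or 0.01 after quantile normalization. Cyc1, which is cytochrome c1, had the largest value, 0.09 (SE 0.0452, limits -0.01 to 0.19, adjusted p = 0.390 from limma), at 11.60 to 11.79 (median 11.66) in Ppara+/+ and 11.69 to 11.87 (median 11.76) in Ppara-/-. The Rieske iron-sulfur protein Uqcrfs1 followed at 0.08, with limits of -0.00 to 0.16. The core proteins were at 0.04 for Uqcrc1 and 0.02 for Uqcrc2, and the small subunit Uqcrb at 0.02.

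Uqcrc1 had the narrowest limits of any member, -0.03 to 0.10, with Ppara+/+ arrays at 11.73 to 11.77 and Ppara-/- arrays at 11.74 to 11.82. Uqcrq, a ubiquinone-binding subunit, was the 1 member of complex III below 0, at -0.06 (limits -0.16 to 0.03), with 11.62 to 11.86 (median 11.79) in Ppara+/+ and 11.66 to 11.75 (median 11.72) in Ppara-/-, the second range lying inside the first.

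Cytochrome c, the mobile carrier that is also released in apoptosis, was read from Cycs at 12.56 to 12.77 (median 12.76) in Ppara+/+ and 12.67 to 12.82 (median 12.80) in Ppara-/-. Its log2 change was 0.06 (limits -0.05 to 0.16), and the ranges overlap. Of its other probe sets, one gave 0.06 and the dimmest, with means of 6.36 and 6.22, gave -0.14 with limits that include 0. No other member with several probe sets, 8 members in all, had probe sets of opposite sign.

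Complex IV reduces oxygen to water, and its nuclear subunits surround the catalytic core made in the mitochondrion. Its 8 members had the highest median of the complexes, 0.08, with 7 above 0. Ndufa4, which stood below 0, is not among these 8. Whether the complexes differ was not tested. Beside Cox5b, Cox7a2 stood at 0.12 (SE 0.0497, limits 0.01 to 0.23, adjusted p = 0.300 from limma), at 10.68 to 10.94 (median 10.77) in Ppara+/+ and 10.88 to 10.97 (median 10.92) in Ppara-/-. The Ppara-/- arrays sat together at the upper end of the wider Ppara+/+ range.

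Cox6b1, which joins the monomers of the dimer, stood at 0.10 and Cox4i1, the largest nuclear subunit, at 0.09, with Cox7b and Cox5a at 0.07 each and Cox8a at 0.06. Of the 8 members counted for complex IV, Cox6c was the 1 below 0, at -0.06 (limits -0.13 to 0.01). Its arrays ran from 13.14 to 13.28 (median 13.20) in Ppara+/+ and from 13.10 to 13.17 (median 13.15) in Ppara-/-. Those ranges overlap.

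Taking each array's mean deviation over all 47 members, the Ppara+/+ arrays ran from -0.08 to 0.01 on the log2 scale and the Ppara-/- arrays from -0.00 to 0.06. The ranges overlap. Replicate 1 of Ppara+/+, a male, was the lowest at -0.08, and replicate 6 of Ppara-/-, also a male, the highest at 0.06. Over complex IV the arrays ran from -0.09 to 0.02 in Ppara+/+ and from 0.01 to 0.06 in Ppara-/-, again with overlap, and over complex III from -0.07 to 0.04 and from -0.02 to 0.06.

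**Figure D3:**
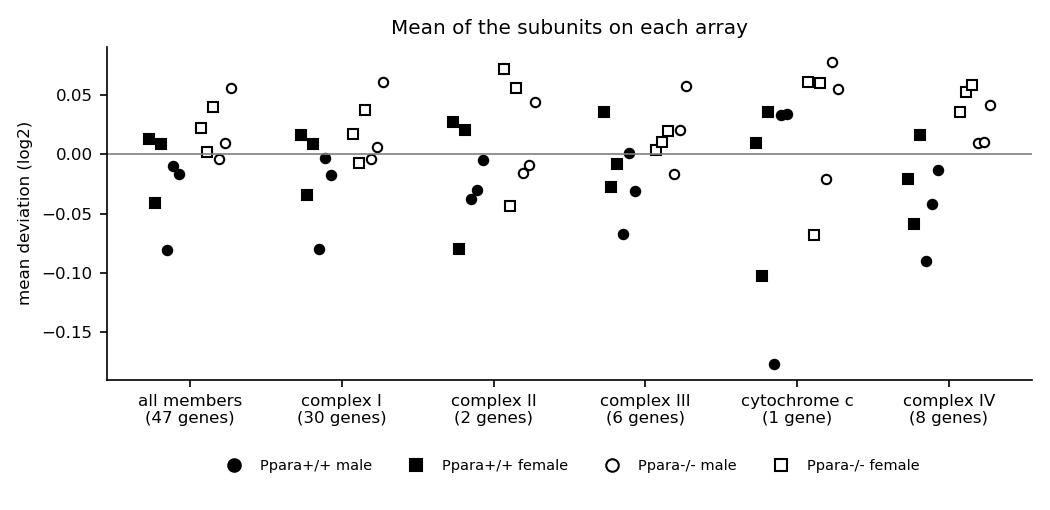
Mean over the genes of each complex of the deviation from the gene's mean, log2, 1 point per array; filled points are Ppara+/+, open points Ppara-/-, circles males and squares females. The genotypes overlap in every column, by the least in complex IV.

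In males 39 members lay above 0 and in females 33, and 30 did so in both. No member was called in either sex alone (limma, 3 arrays against 3, with the spread of all 4 groups shared). An interaction of genotype and sex had an unadjusted p under 0.05 for 0 members, against 1.79% of all genes, and none was called. The interaction ran from -0.16 for Ndufs1, at 0.08 in males and -0.08 in females, to 0.13 for Ndufc1, at 0.04 in males and 0.16 in females. Sex itself gave 1 member with an unadjusted p under 0.05 (all genes 2.78%), Cox8a, which was 0.10 higher in females on the log2 scale (adjusted p = 0.9996 from limma).

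**Figure D4:**
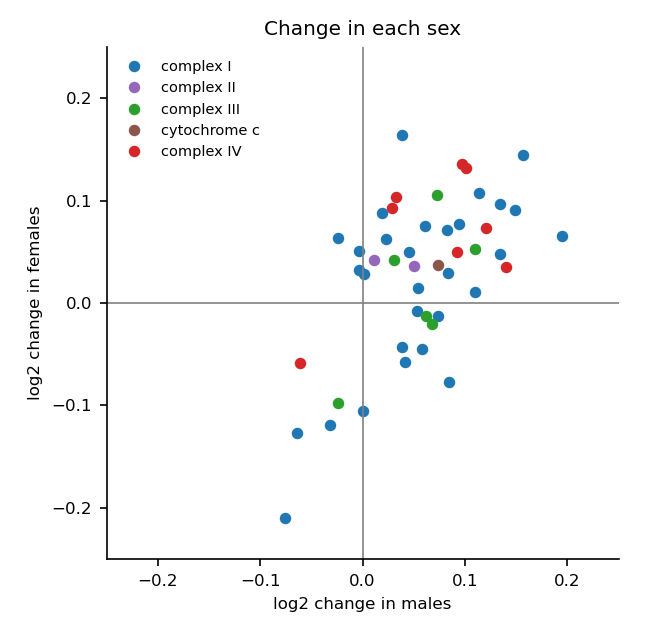
Log2 change in males on the horizontal axis against that in females on the vertical axis, 1 point per subunit gene, coloured by complex. Of the 47 points 30 lie above 0 on both axes.

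The chain has nuclear subunits beyond the 47, and 12 of 16 listed were measured: 1 rose, none fell, and the median log2 change was 0.04. The gene that rose was Sdhb, the iron-sulfur subunit of complex II, from 10.74 to 10.87 in Ppara+/+ to 10.92 to 11.05 in Ppara-/-, a 1.13-fold difference (log2 change 0.18, SE 0.0379, adjusted p = 0.0325 from limma). Leaving out single arrays lost this call in 9 of 12 cases, with adjusted p-values of 0.0310 to 0.08001. Over all 22 limma settings tried it was lost in 10, with an adjusted p of up to 0.128. Sdha, the flavoprotein of the same complex, was at -0.00, and Ndufv3 of complex I at 0.18 did not pass (adjusted p = 0.0926 from limma).

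Of 17 ATP synthase genes 1 rose and none fell, with a median log2 change of 0.06 and 14 above 0. Atp5g1, 1 of the genes for the proton-carrying ring subunit, was 1.16-fold higher (log2 change 0.22, SE 0.0384, adjusted p = 0.0104 from limma) and kept its call when any single array was left out, though not when Ppara-/- replicates 6 and 10 were left out together (adjusted p = 0.0626 from limma). Only 2 of 13 subunits encoded in mitochondrial DNA were measured, ND3 at 0.01 and COX2 at 0.00, and neither passed. Of 37 measured assembly factors none passed (median 0.01, largest change -0.21, for the complex I factor Nubpl). Nor did any of 30 mitochondrial ribosomal proteins (median -0.01), 12 genes of ubiquinone synthesis (median 0.01) or 4 uncoupling proteins (median -0.12). Of the uncoupling proteins 5 were listed, and 3 of the 4 measured had mean signals below the array median.

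Isoforms known mainly from other tissues included 1 gene that fell, Cox6b2, a testis form of the subunit that Cox6b1 encodes in most cells. It went from 9.54 to 9.84 in Ppara+/+ to 8.51 to 8.82 in Ppara-/-, a 2.03-fold fall (log2 change -1.02, SE 0.0672, adjusted p = 6.9e-06 from limma) with no overlap. The other 8 isoforms did not pass, and 7 of the 9 had mean signals below the array median. Cox6b1 itself was at 0.10.

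Of 9 genes that feed electrons in past complexes I and II, 4 fell and none rose, with a median log2 change of -0.09. They were Etfdh (-0.80, adjusted p = 1.6e-07), its partner Etfb (-0.39, 1.7e-04), Suox, the sulfite oxidase that reduces cytochrome c (-0.62, 5.1e-04), and Gpd2, the mitochondrial glycerol phosphate dehydrogenase (-0.35, 0.0463), all from limma. Etfdh was also counted among the known PPARα targets. Gpd2 falls outside the naming rule and is named because the count is small. The call on Gpd2 was lost without single arrays in 10 of 12 cases (adjusted p up to 0.117). Over all 22 limma settings tried it was lost in 13 (adjusted p up to 0.122). Etfa, the other subunit of the flavoprotein, was at -0.09 and did not pass.

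Regulators of respiratory chain genes moved singly: of 20 measured, 1 rose and 1 fell. Ppargc1a, the coactivator PGC-1α, was 1.68-fold higher (8.60 to 9.05 in Ppara+/+, 9.32 to 9.93 in Ppara-/-, adjusted p = 0.0030 from limma). Esrrg, an estrogen-related receptor, was 1.46-fold lower (7.11 to 7.29 in Ppara+/+, 6.46 to 6.84 in Ppara-/-, adjusted p = 9.8e-04 from limma). Its Ppara-/- arrays lay below the lowest array median, 7.16, and 5 of the 20 regulators had mean signals below the array median. Nrf1, nuclear respiratory factor 1, at -0.13, Polg, the mitochondrial DNA polymerase, at -0.16 and Tfam, which packages that DNA, at 0.00 did not pass. Among 16 import and outer membrane proteins, 1 fell, the ADP/ATP carrier Slc25a4, 1.29-fold (adjusted p = 8.9e-04 from limma), while the liver's more general carrier Slc25a5 was at 0.09 (adjusted p = 0.216 from limma).

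**Figure D5:**
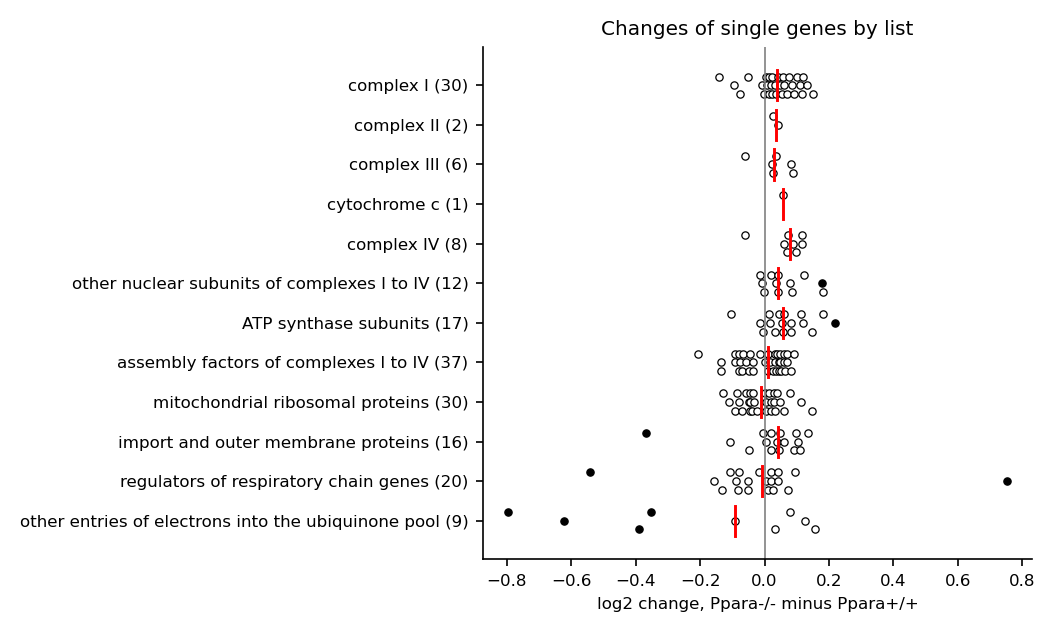
Log2 change of single genes, 1 point each, on the horizontal axis, by complex and by list with the number of genes; filled points passed an adjusted p under 0.05 and red bars are medians. The member rows hold open points only, and the last row holds Etfdh, Suox, Etfb and Gpd2 as filled points on the left.

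No marker of another liver cell type passed the test. Within the Kupffer cell, endothelial and erythroid lists most changes shared a sign, though the array means of the genotypes overlap. Any part of these lists in the subunit differences was not tested. All 13 Kupffer cell markers lay above 0 (median 0.19), with an array mean of 9.95 to 10.33 in Ppara+/+ and 10.21 to 10.34 in Ppara-/-. All 12 endothelial markers did so too (median 0.13, array means 9.88 to 10.05 and 10.01 to 10.14). Of 12 erythroid markers measured, of 16 listed, 1 did (median -0.17, means 10.28 to 10.61 and 10.20 to 10.56). Among those 12, 2 had mean signals below the array median. Hepatocyte markers, 9 of 10 listed, had a median of 0.02, with array means of 13.77 to 13.83 and 13.79 to 13.83, so the labelled tissue carried its defining genes. Of 8 brown fat and muscle markers 6 lay below the array median and none passed.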

How the data were processed

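Liver RNA of 12 pups with an integrity number above 8 was hybridised to Affymetrix mouse gene arrays, and the authors deposited log2 signals per probe set after RMA. The version of RMA is not given in the sources used. The values were used as deposited. RMA normalizes across arrays, so a shift shared by most genes would not be seen.

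Linear models with terms for genotype and sex were fitted to every probe set with limma 3.58.1 in R 4.3.3, by lmFit and eBayes (residual degrees of freedom 9, prior 2.49), and p-values were adjusted by Benjamini-Hochberg over all probe sets. Limits are 95% limits of the moderated fit. Of 35556 probe sets, 21789 name 1 gene, 1621 several and 12146 none; all 47 members matched a RefSeq identifier under the same symbol. Named were Ppara, members that passed, the largest fall and rise of each complex or arm, the widest and narrowest limits, members whose probe sets disagree and up to 3 called genes per list and direction; the other members are given by value. Gpd2 and the genes named as not called beside a list's called genes (Etfa, Sdha, Ndufv3, Nrf1, Polg, Tfam, Slc25a5) lie outside this rule and were chosen after their values were seen. Members and lists were chosen with earlier results of these data known. Motifs were counted with Python 3.11.15. The calculation was tested on simulated data. Tried in turn were the values centred by array median or quantile normalized, array weights, a variance trend fitted robustly, dropping sex or fitting 4 groups, testing single-gene probe sets alone, averaging each gene over its probe sets, removing signals below the 40th percentile, an exact Mann-Whitney test, leaving out each array, and leaving out Ppara-/- replicates 6 and 10 together.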

Additional observations from a re-analysis of the deposited data

Results flagged for a closer look

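Among 94 groups of 6 arrays, 1 per member and genotype, a sample stood far from the other five in 4, and about 1 in 20 groups does so by chance. In the Ppara+/+ livers replicate 7 was the highest for Ndufa9 (11.46, next 11.36) and for Ndufs3 (11.33, next 11.25), with gaps of 0.721 and 0.643 of the group's range. For Ndufb2 the highest arrays were replicate 3 of Ppara+/+ (8.81, next 8.74), with a gap of 0.626 of the range, and replicate 6 of Ppara-/- (9.02, next 8.84), with a gap of 0.642. None of these members was called with or without these arrays. Replicate 7 of Ppara+/+ also had the lowest array weight, 0.420, where the highest was 1.54.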

How the results depend on the processing

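Of 1034 member values recomputed under 22 limma settings, 1033 kept their side of the threshold and 1 did not, Cox5b, the 1 member called, and higher, with a robust variance trend. At an unadjusted p under 0.05, 1 member was lower and 12 were higher. Members without overlap between the genotypes numbered 2 after median centring and 3 to 6 when single arrays were left out, with 6 without Ppara+/+ replicate 7 (all genes 7.24%; 6 higher) and 6 without Ppara+/+ replicate 1 (all genes 5.11%; 3 higher, 3 lower). Members above 0 numbered 35 after quantile normalization and up to 41 without Ppara+/+ replicate 7. The median change of all members ran from 0.04 to 0.05, that of complex I from 0.02 to 0.05, of complex II from 0.01 to 0.05, of complex III from 0.01 to 0.04 and of complex IV from 0.06 to 0.10, while cytochrome c read as the mean of its probe sets was at -0.01. The exact Mann-Whitney test is not counted here: its smallest two-sided p, 0.00216, was reached by 1114 of 35556 probe sets and became 0.0691 after adjustment, so no gene could be called. Arrays give signal and not counts, so no limit from depth applies. Small changes could not be called, also where they exceeded their SE, such as 0.13 for Ndufb5 (SE 0.0414, adjusted p = 0.157 from limma). No analysis paired by litter was possible, because the litter of each pup is not labelled.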
